A study of Mus musculus with 4 samples.

Results

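The 10 genes described here encode the core of the transforming growth factor beta (TGF-beta) pathway, namely the ligands Tgfb1, Tgfb2 and Tgfb3, the receptors Tgfbr1, Tgfbr2 and Eng, and the signal transducers Smad2, Smad3, Smad4 and Smad7. They were chosen by symbol. Each of the 10 symbols matched 1 of the 56004 gene rows in the deposited tables. The rows of Tgfbr1 and Smad4 carried an identifier of an assembled transcript (MSTRG) beside the Ensembl identifier.

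The series had 4 RNA-seq libraries of mouse cells labelled as Kupffer cells, which are macrophages resident in the liver. In 2 libraries, called PRL-3 samples here, the cells had received exosomes of the line MC38-PRL-3. In the other 2, called VT samples, they had received exosomes of the line MC38-VT. MC38 is a mouse colon carcinoma line, exosomes are small vesicles that cells release, and PRL-3 is a phosphatase encoded by Ptp4a3. RNA was taken 48 h after the exosomes were added to the cells. What VT stands for is not explained in the labels, which give neither the strain, sex and age of the animals nor whether a cell line was used. They name an amount of 10 ug beside MC38-VT. They call the libraries biological replicates without saying what separates the cultures of a group. The p values thus set each difference only against the spread between these libraries, a spread estimated with help from all tested genes.

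TGF-beta ligands are made as precursors and kept latent in a complex with their own propeptide. Once freed, a ligand binds the type II receptor (Tgfbr2), which recruits and phosphorylates the type I receptor (Tgfbr1), and this in turn phosphorylates Smad2 and Smad3. These enter the nucleus with Smad4, while Smad7 inhibits the receptor. In macrophages the pathway is known for restraining inflammatory activation and for shaping tissue-resident states, and in the liver TGF-beta is known as a driver of fibrosis.

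The values are FPKM, fragment numbers scaled to transcript length and library depth, in which levels of different genes can be compared per length. The implied depths were 16900000 to 18300000 fragments per library. Of 6 markers of resident Kupffer cells, 5 (Clec4f, Vsig4, Timd4, Marco and C6) were listed at 0 in all 4 libraries. The sixth, Cd5l, was at 2.36 and 1.05 FPKM in PRL-3 samples and 3.52 and 3.51 in VT samples. These markers thus did not bear out the labelled Kupffer cell identity. Of 9 general macrophage markers, 8 were expressed and tested, while Mertk was listed at 0 in all libraries but VT replicate 2 (0.02 FPKM). Lyz2 made up 73.8% to 74.7% of their summed level in each library. Of the 8 tested markers, 2 were higher in both PRL-3 samples (25.0%, against 24.3% of all tested genes). Another 2 (Lyz2 and Cd14) were lower (25.0%, against 18%) and 4 overlapped. The median difference of the 8 was -0.03 and none was called.

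Of the 10 genes, 7 reached the FPKM of 1 in at least 2 libraries that was required for testing, and Tgfb2, Tgfb3 and Smad3 did not. None of the 7 was called by limma at an adjusted p under 0.05, where 6 of 12193 tested genes (0.0492%) were called. At an unadjusted p under 0.05 there was 1 of the 7, Tgfbr2, against 9.51% of all tested genes. Tgfbr2 was lower in PRL-3 samples, at 0.80 times the VT mean. The remaining 6 tested genes overlapped between the groups. All differences without another unit are the log2(FPKM + 1) of PRL-3 less that of VT, a scale that understates the change of low genes.

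**Figure D1:**
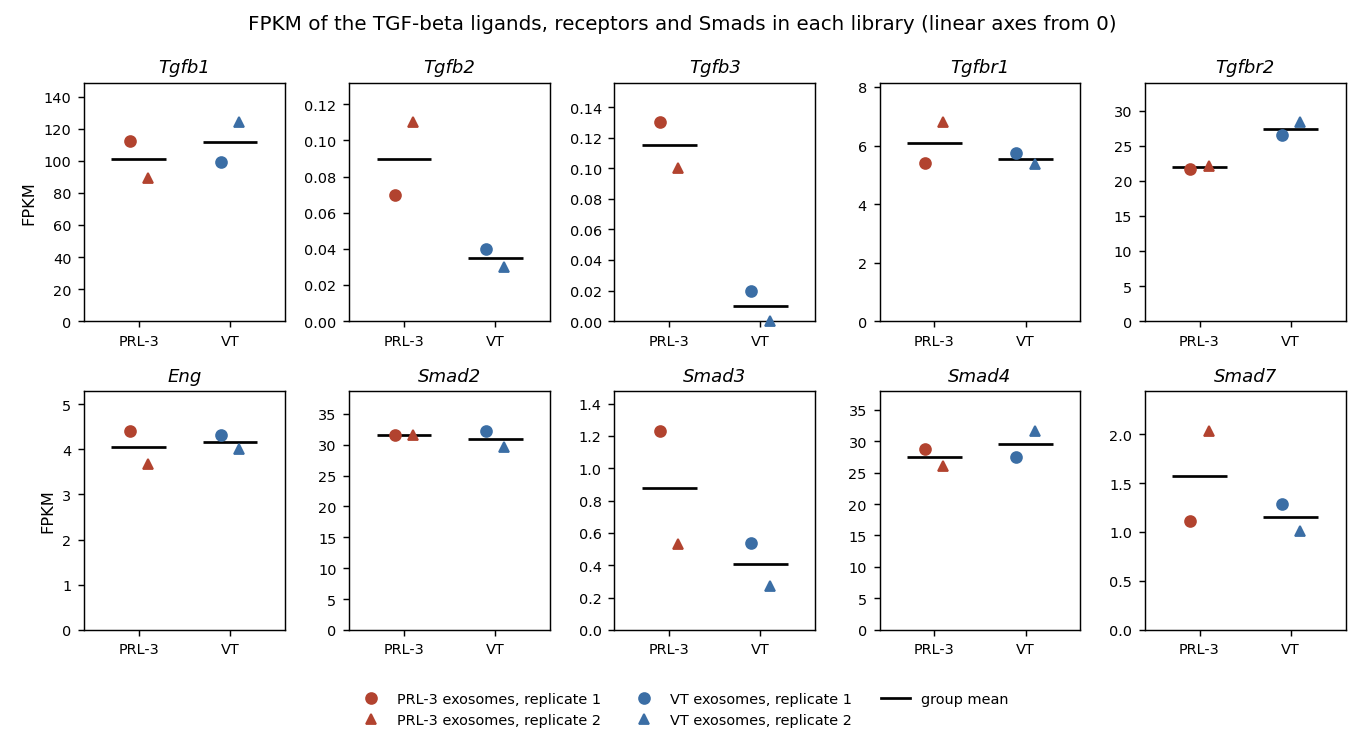
FPKM of the 10 genes in each library, on linear axes that start at 0 and differ between panels. Points are libraries and bars are group means. The PRL-3 samples lay below the VT samples for Tgfbr2 (21.7 and 22.1 against 26.5 and 28.3 FPKM) and above them for the barely detected Tgfb2 and Tgfb3.

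Among the ligands, Tgfb1 made up nearly all of the ligand transcript. Its share of the summed FPKM of the 3 ligands was 99.82% and 99.77% in PRL-3 samples, and 99.94% and 99.98% in VT samples. The promoters of Tgfb1 and Tgfb2 are shown because these genes of 1 family stood at opposite ends of the level range. The windows run from 250 bases before to 50 bases after the start of the gene as annotated by RefSeq on GRCm38.p6, where 6 of the 10 genes were matched to a window. The window of Tgfb1 lies at chr7:25686752-25687051 on the plus strand and that of Tgfb2 at chr1:186705940-186706239 on the minus strand. Capitals mark matches on either strand. For the TATA box the letters searched were TATAAA. For the GC box they were GGGCGG, and the CCAAT box was searched as spelled. No match overlapped another.
Tgfb1: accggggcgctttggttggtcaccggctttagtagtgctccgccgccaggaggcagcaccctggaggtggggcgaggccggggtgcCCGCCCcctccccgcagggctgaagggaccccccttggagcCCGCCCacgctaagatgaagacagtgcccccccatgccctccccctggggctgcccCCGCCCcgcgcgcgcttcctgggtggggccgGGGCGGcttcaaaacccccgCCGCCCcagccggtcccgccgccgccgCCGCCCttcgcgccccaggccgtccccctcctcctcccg
Tgfb2: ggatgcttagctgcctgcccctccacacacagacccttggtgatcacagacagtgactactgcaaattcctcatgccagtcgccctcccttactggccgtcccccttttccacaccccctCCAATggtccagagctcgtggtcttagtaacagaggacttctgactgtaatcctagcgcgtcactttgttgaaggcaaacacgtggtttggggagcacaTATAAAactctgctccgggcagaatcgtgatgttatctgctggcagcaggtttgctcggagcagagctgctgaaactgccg
The Tgfb1 window held 6 GC boxes and neither of the other motifs. The Tgfb2 window held 1 TATA box, which began 31 bases before the start, 1 CCAAT box and no GC box. Of 32851 windows of this length, 35.7% held a GC box, 13.6% a TATA box and 37.4% a CCAAT box, and 1.35% held 6 or more GC boxes. These matches are letters in the reference and not sites shown to be bound.

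Tgfb1 (ENSMUSG00000002603, chromosome 7, 25687002 to 25705077, plus strand, on GRCm38 as for the genes that follow) stood at 112.6 and 89.5 FPKM in PRL-3 replicates 1 and 2, and at 99.5 and 124.0 in VT replicates 1 and 2. The highest and the lowest value thus belonged to different groups and the groups overlapped. The means were 101 ± 16.3 FPKM in PRL-3 samples and 112 ± 17.3 in VT samples (SD, n = 2 each). The difference of -0.14 had a standard error of 0.16 and a 95% interval of -0.54 to 0.25 (limma, adjusted p = 0.81). Tgfb1 ranked 982 of 56004 rows by mean value, so the ligand was among the well expressed transcripts of these cells.

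Tgfb2 (ENSMUSG00000039239, chromosome 1, 186622792 to 186705989, minus strand) stood at 0.07 and 0.11 FPKM in PRL-3 samples and 0.04 and 0.03 in VT samples. On the depth fit these values stand for about 5.8 and 9.8 fragments against 3.5 and 2.7. Tgfb3 (ENSMUSG00000021253, chromosome 12, 86056745 to 86079041, minus strand) stood at 0.13 and 0.10 FPKM in PRL-3 samples, and at 0.02 and listed at 0 in VT samples, or about 7.0 and 5.8 fragments against 1.1 and 0. Both genes therefore had higher values in both PRL-3 samples, at a level of a few fragments. Of the 11468 rows that were above 0 but not tested, 14.8% had this order and 7.26% the opposite one.

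The 3' end of Tgfb3 overlaps the protein-coding gene Ttll5 on the opposite strand over 5149 bases. Ttll5 was at 4.60 and 5.73 FPKM in PRL-3 samples and 7.38 and 4.46 in VT samples, and no source used here states a stranded kit, so reads of the overlap cannot be told apart. The depth was too low for a statement on either ligand, and no fold is given for Tgfb3. Without the filter on low values, limma gave an adjusted p of 0.77 for each.

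Of the receptors, Tgfbr2 was the gene that stood apart most. Tgfbr2 (ENSMUSG00000032440, chromosome 9, 116084293 to 116175360, minus strand), the type II receptor that binds the ligand, was at 21.7 and 22.1 FPKM in PRL-3 replicates 1 and 2, and at 26.5 and 28.3 in VT replicates 1 and 2. Both PRL-3 samples lay below both VT samples, as they did for 18% of the tested genes. The means were 21.9 ± 0.325 FPKM in PRL-3 samples and 27.4 ± 1.27 in VT samples (SD, n = 2 each). The gap of 4.38 FPKM between the groups was larger than the gap within either, 0.46 and 1.79. The log2 difference came to -0.31 (standard error 0.10, 95% interval -0.55 to -0.07, limma adjusted p = 0.49). Fewer cells with the transcript and less transcript per cell cannot be told apart in bulk RNA. Of the 8 tested macrophage markers, Lyz2 and Cd14 were also lower in both PRL-3 samples and Fcgr1 and Ptprc were higher, and their part in the Tgfbr2 values was not tested.

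The promoter window of Tgfbr2 (chr9:116175314-116175613, minus strand, RefSeq on GRCm38.p6) is shown because Tgfbr2 was the tested gene whose groups did not overlap. Capitals mark its 2 CCAAT boxes, on opposite strands, and it held no TATA box or GC box.
Tgfbr2: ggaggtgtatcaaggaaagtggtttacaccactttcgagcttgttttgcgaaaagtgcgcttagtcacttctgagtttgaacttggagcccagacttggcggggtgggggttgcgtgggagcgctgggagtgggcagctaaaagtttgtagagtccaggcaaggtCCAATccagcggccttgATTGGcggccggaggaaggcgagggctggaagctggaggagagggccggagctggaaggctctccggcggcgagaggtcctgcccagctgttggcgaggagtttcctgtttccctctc

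Tgfbr1 (ENSMUSG00000007613, chromosome 4, 47353222 to 47414931, plus strand), the type I receptor kinase, was at 5.41 and 6.79 FPKM in PRL-3 samples and 5.74 and 5.37 in VT samples. Only PRL-3 replicate 2 was outside the range of the other 3 libraries by more than 1 FPKM. The log2 difference came to 0.11 (standard error 0.15, 95% interval -0.26 to 0.48, limma adjusted p = 0.85). Within a library, Tgfbr2 stood at 4.01 and 3.26 times Tgfbr1 in PRL-3 samples and at 4.62 and 5.27 times in VT samples. The ratio was thus lower in both PRL-3 samples. It was 1 of 6 ratios between members that were computed, and was chosen after its values were seen. Tgfbr2 over Eng had the same order (4.93 and 6.02 in PRL-3 samples, 6.15 and 7.08 in VT samples). So had Smad2 over Smad3 (25.6 and 59.5 against 59.6 and 109.6), and the remaining ratios overlapped. No exact permutation test of these ratios was run, since 2 against 2 libraries cannot give a two-sided p below 0.33.

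Eng (ENSMUSG00000026814, chromosome 2, 32646595 to 32682669, plus strand), endoglin, is a co-receptor known best from endothelial cells. It was at 4.4 and 3.68 FPKM in PRL-3 samples and 4.31 and 4.0 in VT samples. The groups overlapped, with a difference of -0.04, a standard error of 0.15 and a 95% interval of -0.41 to 0.33 (limma, adjusted p = 0.96). Of 7 endothelial markers, none reached the level required for testing and Emcn was listed at 0 in all libraries. Their summed level was 1.26 and 1.48 FPKM in PRL-3 samples and 1.21 and 0.93 in VT samples, below that of Eng in each library. The last 61 bases of Eng overlap Fpgs on the opposite strand.

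**Figure D2:**
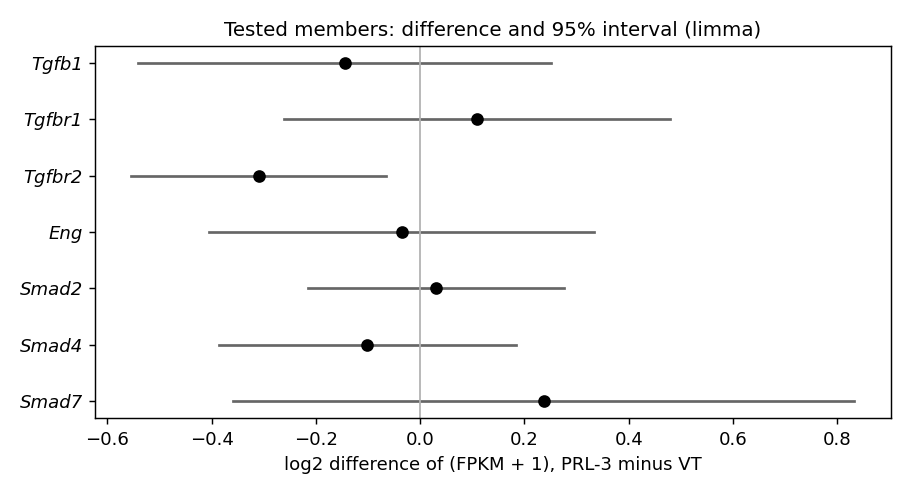
Log2 difference of FPKM + 1, PRL-3 minus VT, for the 7 tested genes, with points for the limma estimate and lines for its 95% interval, not adjusted for multiple testing. The interval of Tgfbr2 (-0.55 to -0.07) lay below 0, and the other 6 intervals spanned 0.

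Of the receptor-activated Smads, Smad2 was much more abundant than Smad3. Smad2 (ENSMUSG00000024563, chromosome 18, 76241580 to 76310963, plus strand) stood at 31.5 FPKM in each PRL-3 sample and at 32.2 and 29.6 in VT samples. Its difference came to 0.03 (standard error 0.10, 95% interval -0.22 to 0.28, limma adjusted p = 0.94), and it had the smallest absolute difference of the 7 tested genes.

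Smad3 (ENSMUSG00000032402, chromosome 9, 63646767 to 63757994, minus strand) stood at 1.23 and 0.53 FPKM in PRL-3 samples and 0.54 and 0.27 in VT samples. It varied 2.32 times between the PRL-3 samples and 2.0 times between the VT samples, and PRL-3 replicate 2 lay 0.01 FPKM below VT replicate 1. The depth fit put these values at about 101 and 47.0 fragments in PRL-3 samples and 47.6 and 24.1 in VT samples. The ratio of the group means, 2.17, was therefore of the size of the ratio between replicates. Smad3 was not tested in the main comparison, and without the filter its difference came to 0.40 (standard error 0.25, limma adjusted p = 0.77).

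Smad4 (ENSMUSG00000024515, chromosome 18, 73639009 to 73703780, minus strand), the partner shared by TGF-beta and bone morphogenetic protein (BMP) signals, was at 28.8 and 26.1 FPKM in PRL-3 samples and 27.5 and 31.6 in VT samples. The groups overlapped. The log2 difference came to -0.10 (standard error 0.12, 95% interval -0.39 to 0.18, limma adjusted p = 0.81).

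Smad7 (ENSMUSG00000025880, chromosome 18, 75367529 to 75395935, plus strand), the inhibitory Smad and itself a known target of the pathway, was at 1.11 and 2.03 FPKM in PRL-3 samples and 1.29 and 1.01 in VT samples. PRL-3 replicate 2 was the highest library and PRL-3 replicate 1 lay between the VT samples. The log2 difference came to 0.24 (standard error 0.24, 95% interval -0.36 to 0.83, limma adjusted p = 0.79), and the interval was the widest of the 7.

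The order of levels placed Tgfb1 first, at a mean of 106 FPKM over all libraries. It was followed by Smad2 (31.2), Smad4 (28.5) and Tgfbr2 (24.7), and then by Tgfbr1 (5.83), Eng (4.10), Smad7 (1.36), Smad3 (0.64), Tgfb2 and Tgfb3 (0.06 each). The ranges over the 4 libraries overlapped for the neighbours Smad2 and Smad4, Smad4 and Tgfbr2, Smad7 and Smad3, and Tgfb2 and Tgfb3. Smad4 was nevertheless above Tgfbr2 within each of the 4 libraries. The ranges did not overlap between Tgfb1 and Smad2, Tgfbr2 and Tgfbr1, Tgfbr1 and Eng, Eng and Smad7, or Smad3 and Tgfb2.

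Genes around this core were examined in 8 lists of other pathway genes. Of their 117 symbols, 115 were found, 20 were listed at 0 in all libraries and 56 were tested. None of the 56 was called (limma, lowest adjusted p = 0.43, for Bgn). Both PRL-3 samples lay above both VT samples for 24.3% of all tested genes and below them for 18%. Of the 56, 5 (Bgn, Fstl1, Fn1, Acta2 and Tagln) had reached the required FPKM of 1 in PRL-3 samples only, so that they had to differ. Without genes that reached it in 1 group only, 22 of 51 were higher in both PRL-3 samples (43.1%, against 23.7% of all genes so restricted) and 7 were lower (13.7%, against 17.7%). Their median difference was 0.16, beside 0.01.

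**Figure D3:**
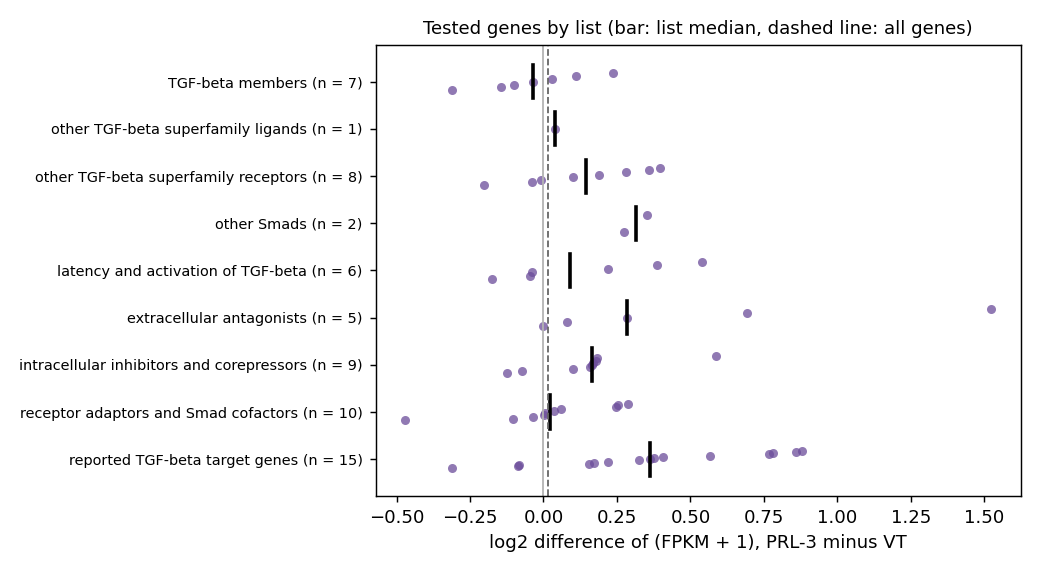
Log2 difference of FPKM + 1, PRL-3 minus VT, for each tested gene of the 10 core genes and of the 8 pathway lists. Bars are list medians and the dashed line is the median of all tested genes (0.02). The median was -0.04 for the tested core genes and 0.36 for the reported target genes, of which 3 reached the required FPKM in PRL-3 samples only.

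Few other ligands of the superfamily were expressed. Of 26, 13 were listed at 0 in all libraries and 1 was tested, Gdf15, a stress-induced member, at 3.60 and 3.44 FPKM in PRL-3 samples and 3.71 and 3.11 in VT samples. Of 8 tested superfamily receptors, 3 lay higher in both PRL-3 samples (37.5%, against 24.3% of all tested genes) and 1 lower (12.5%, against 18%). Bmpr1a, a type I BMP receptor, was at 29.1 and 23.8 FPKM in PRL-3 samples and 20.8 and 18.8 in VT samples (limma, adjusted p = 0.49). Acvr1, another type I receptor, was at 19.5 and 15.9 FPKM in PRL-3 samples and 13.6 and 13.4 in VT samples (limma, adjusted p = 0.51). Acvrl1, a type I receptor known from endothelium that also serves macrophages, overlapped between the groups, at 9.41 to 12.1 FPKM in PRL-3 samples and 10.5 to 10.9 in VT samples.

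Of 4 other Smads, 2 were tested, Smad1 and Smad5 of the BMP branch. Both had higher values in both PRL-3 samples, as had 24.3% of all tested genes. Smad6 (0.81 and 0.46 FPKM in PRL-3 samples, 0.72 and 0.82 in VT samples) and the barely detected Smad9 were not tested and overlapped. Smad1 was at 7.34 and 6.98 FPKM in PRL-3 samples and 5.94 and 4.89 in VT samples (limma, adjusted p = 0.52). Smad5 was at 10.8 and 11.3 FPKM in PRL-3 samples and 9.45 and 8.55 in VT samples (limma, adjusted p = 0.55). Neither passed the test. Whether the difference of these genes differed from that of the core genes was not tested. Of the Id genes, known targets of the BMP branch, Id1 was lower in both PRL-3 samples, as were 18% of all tested genes. It was at 6.37 to 6.41 FPKM in PRL-3 samples and 6.59 to 7.12 in VT samples. Id3 overlapped, at 14.7 to 15.4 FPKM in PRL-3 samples and 15.0 to 17.1 in VT samples. Id2 also overlapped, at 3.96 to 4.22 FPKM in PRL-3 samples and 4.22 to 6.62 in VT samples. The Id genes were chosen after their values were seen, and their relation to Smad1 and Smad5 was not tested.

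Latent TGF-beta is anchored by binding proteins and freed by integrins of the alpha v group, proteases or thrombospondin. Of 6 tested genes of latency and activation, 1 was higher in both PRL-3 samples (16.7%, against 24.3% of all tested genes), 2 were lower (33.3%, against 18%) and 3 overlapped. The higher one was Itgb5, the beta 5 subunit of the integrin in the series title, at 29.4 and 22.1 FPKM in PRL-3 samples and 16.1 and 18.4 in VT samples (limma, difference 0.54, standard error 0.16, adjusted p = 0.47). Its partner Itgav overlapped, at 25.5 and 40.7 FPKM in PRL-3 samples and 32.8 and 33.8 in VT samples. Furin, the protease that cleaves the ligand precursor, was at 87.0 and 69.0 FPKM in PRL-3 samples and 69.3 and 63.6 in VT samples and overlapped narrowly. The lower ones were Itgb1, at 73.1 to 73.2 FPKM in PRL-3 samples and 74.0 to 76.3 in VT samples, and Nrros, which anchors latent TGF-beta on myeloid cells, at 23.8 and 21.7 FPKM in PRL-3 samples and 25.6 and 26.1 in VT samples. Itgb6 and Itgb8, the beta subunits best known for activating latent TGF-beta, were listed at 0 in all libraries. Of the 7 genes that were detected but not tested, 5 lay higher in both PRL-3 samples, as did 14.8% of all such rows. Another 1, Itgb3, lay lower, as did 7.26% of such rows. Its values were near 0, at 0.02 and 0.03 FPKM in PRL-3 samples and 0.05 and 0.04 in VT samples. The 5 included Thbs1, thrombospondin 1, at 0.53 and 0.42 FPKM in PRL-3 samples and 0.07 and 0.02 in VT samples, and Lrrc32, which holds latent TGF-beta on cell surfaces, at 0.08 and 0.03 FPKM against 0 in both VT samples (Nrros, Itgb3, Itgb6, Itgb8, Thbs1 and Lrrc32 were chosen after their values were seen).

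Intracellular inhibitors of the pathway were higher in both PRL-3 samples for 5 of 9 tested genes (55.6%, against 24.3% of all tested genes), lower for 2 (22.2%, against 18%) and overlapping for 2, with a median difference of 0.16. Nedd4l, a ubiquitin ligase that acts on activated Smad2 and Smad3, was at 21.9 and 15.3 FPKM in PRL-3 samples and 14.2 and 9.89 in VT samples (limma, adjusted p = 0.51). The corepressor Tgif1 was at 70.3 and 74.1 FPKM in PRL-3 samples and 68.7 and 60.3 in VT samples. Ppm1a, a phosphatase reported to act on Smad2 and Smad3, was at 84.4 and 74.2 FPKM in PRL-3 samples and 69.4 and 72.4 in VT samples. Fkbp1a, which binds and restrains the type I receptor, was lower in both PRL-3 samples, at 190 and 196 FPKM against 207 and 214.

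Of 10 tested adaptors and Smad cofactors, 3 were higher in both PRL-3 samples (30.0%, against 24.3% of all tested genes), 1 was lower (10.0%, against 18%) and 6 overlapped. The lower one was Dab2, an endocytic adaptor that binds Smads and the receptors, at 218 and 286 FPKM in PRL-3 samples and 347 and 346 in VT samples. Its difference came to -0.47 (standard error 0.15, limma adjusted p = 0.49). PRL-3 replicate 1 was the lowest library. Tab2, an adaptor of the kinase Map3k7, was at 61.7 and 63.9 FPKM in PRL-3 samples and 54.8 and 50.2 in VT samples, and the deubiquitinase Usp15 overlapped at 97.1 to 104 FPKM over all libraries. Without PRL-3 replicate 2, the difference of Dab2 came to -0.67. That fit left in the PRL-3 group only the library with the lowest Dab2 value.

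Extracellular antagonists had 5 tested genes, of which Bgn and Fstl1 had reached an FPKM of 1 in PRL-3 samples only and are given as values. Of the other 3, Twsg1 was higher in both PRL-3 samples (33.3%, against 23.7% of all genes so restricted). None was lower (against 17.7%) and 2 overlapped. Bgn, the matrix proteoglycan biglycan, which can bind TGF-beta, was at 2.76 and 1.79 FPKM in PRL-3 samples, and at 0.27 and listed at 0 in VT samples. Fstl1, a follistatin-like protein, was at 2.15 and 1.22 FPKM in PRL-3 samples and 0.98 and 0.35 in VT samples. Twsg1, which modulates BMPs, was at 13.2 and 15.1 FPKM in PRL-3 samples and 10.7 and 12.2 in VT samples. Dcn overlapped at 4.32 to 6.63 FPKM in PRL-3 samples and 4.65 to 5.44 in VT samples, and so did Vasn at 1.34 to 2.89 and 1.99 to 2.05 FPKM.

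Of the genes reported as targets of TGF-beta, 15 were tested, of which Fn1, Acta2 and Tagln had reached an FPKM of 1 in PRL-3 samples only. Of the other 12, 7 lay higher in both PRL-3 samples (58.3%, against 23.7% of all genes so restricted). Another 1, Id1, lay lower (8.33%, against 17.7%) and 4 overlapped. The median difference of the 12 was 0.27. The median over the 15 was 0.36, and 0.22 without PRL-3 replicate 2. None of the 15 was called (limma, lowest adjusted p = 0.45). The list includes Id1, Id2 and Id3, given above, with differences of -0.09, -0.31 and -0.08. These were its only tested genes with a negative difference. Beside them, it mixes abundant genes of the growth and stress response with low matrix and contractile genes. Most of its members also respond to other signals. In the first kind, Cdkn1a, a cell cycle inhibitor, was at 103 and 88.8 FPKM in PRL-3 samples and 74.9 and 73.3 in VT samples. Rhob, a small GTPase, was at 16.6 and 13.1 FPKM in PRL-3 samples and 9.71 and 9.57 in VT samples (limma, difference 0.57, standard error 0.14, adjusted p = 0.45). Gadd45b was at 69.2 and 48.9 FPKM in PRL-3 samples and 48.5 and 41.0 in VT samples. Junb overlapped, at 121 and 164 FPKM in PRL-3 samples and 127 and 124 in VT samples.

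The matrix and contractile targets named next were chosen by their difference, and their values are a description. Fn1, fibronectin, was at 1.72 and 1.18 FPKM in PRL-3 samples and 0.35 and 0.30 in VT samples. Acta2, smooth muscle actin, was at 1.94 and 2.61 FPKM in PRL-3 samples and 0.97 and 0.86 in VT samples. Tagln, transgelin, was at 2.33 and 1.6 FPKM in PRL-3 samples and 0.57 and 0.87 in VT samples. Both PRL-3 samples were higher for each of these genes. Timp1, an inhibitor of matrix proteases, was at 2.1 and 4.32 FPKM in PRL-3 samples and 1.33 and 1.15 in VT samples. Tgfbi, a matrix protein induced by the pathway, was at 0.02 and 0.11 FPKM in PRL-3 samples and 0.07 and 0.16 in VT samples, and overlapped. Below the level of testing, 7 of 10 detected targets were higher in both PRL-3 samples, as were 14.8% of all such rows. Ccn2, a matricellular growth factor, was at 0.78 and 0.55 FPKM in PRL-3 samples, and at 0.03 and listed at 0 in VT samples (Tgfbi and Ccn2 were chosen after their values were seen).

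Some markers of stellate cells and fibroblasts had the same order, and none passed a test. Of 8 such markers, 1 (Lrat, which defines quiescent stellate cells) was listed at 0 in all libraries, and 1 (Dcn) was tested and overlapped. Of the other 6, which were not tested, Des overlapped and 5 (Col1a1, Col1a2, Col3a1, Pdgfrb and Lum) lay higher in both PRL-3 samples. The same order was found for 14.8% of all rows that were above 0 but not tested, and the opposite one for 7.26%. Col1a1 was at 0.68 and 0.52 FPKM in PRL-3 samples and 0.01 and 0.03 in VT samples. Col1a2 was at 0.81 and 0.47 FPKM and Col3a1 at 0.34 and 0.86 FPKM in PRL-3 samples, and both were listed at 0 in VT samples. The summed level of the 8 markers was 9.95 and 7.57 FPKM in PRL-3 samples and 6.32 and 5.25 in VT samples. Most of each sum was Dcn, at 6.63 and 4.32 FPKM in PRL-3 samples and 5.44 and 4.65 in VT samples. The target list shares 3 collagen genes with these markers. The part of such cells in the values of Tgfb2, Tgfb3, Thbs1, Bgn and the low targets was not tested. Of 5 epithelial markers, all were listed at 0 in both PRL-3 samples, and Krt8 (0.10 and 0.06 FPKM) and Krt18 (0.05 and 0) were detected in VT samples.

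**Figure D4:**
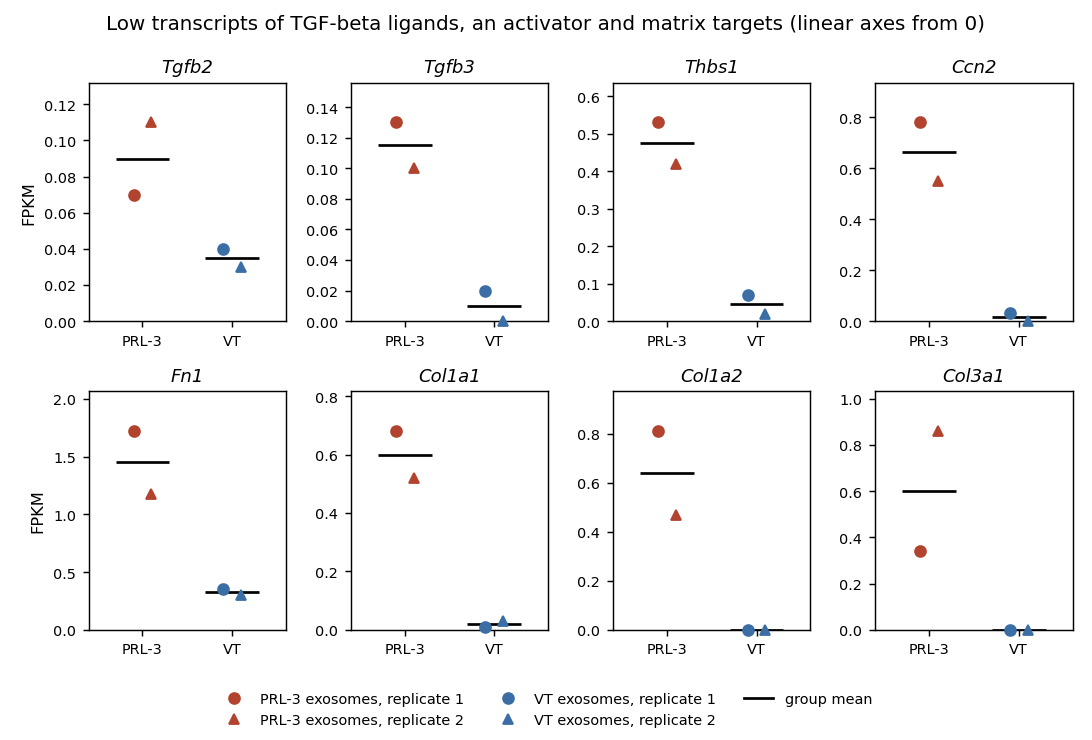
FPKM of low transcripts in each library, on linear axes that start at 0 and differ between panels. Points are libraries and bars are group means. Tgfb2 and Tgfb3 share with Thbs1, Ccn2, Fn1 and the collagens an order in which both PRL-3 samples lie above both VT samples, all at 1.72 FPKM or less (the 6 others were chosen for display after their values were seen).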

How the data were processed

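RNA-seq was compared between 2 PRL-3 and 2 VT libraries. Each deposited table held a single column of values with 2 decimals, whose unit is not named. They were read as FPKM made by the authors, because they were not whole and their sums (675475 to 725599) differed. The submitters' processing notes name RSEM, DESeq2 and mm10. The aligner and the transcript assembler were not stated. Per the labels, bead-captured mRNA was reverse transcribed from random hexamers, with PCR to follow.

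Depth was fitted so that low values of genes with 1 annotated transcript of 600 to 2000 bases became whole fragments. Within 0.2 fragments, 88.1% to 89.8% of values were whole, where 40% would be so by chance. The fragments quoted per gene use the longest annotated transcript and are approximations that cover counting only. FPKM depends on the transcript set the authors used.

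The 12193 genes that reached an FPKM of 1 in 2 libraries entered limma 3.58.1 (R 4.3.3), fitted to log2(FPKM + 1) with the trend and robust options. The pseudocount was 1. Adjusted p values are Benjamini-Hochberg values over all genes tested. The script was tested on simulated data. Gene positions are from GENCODE release M21 on GRCm38, and promoter sequences from RefSeq on GRCm38.p6.

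The genes, lists and tests were chosen with earlier results of these data known. The rule for named genes takes the 10 core genes, Itgav and Itgb5, and of each pathway list every called gene, the 3 tested genes of highest mean, and every tested gene with both PRL-3 libraries on one side of both VT libraries and an absolute difference of 0.5 or more. The alternatives were another pseudocount (0.1), no filter, a mean of 5 or more, scaling to the same sum or median, no trend, no robust moderation, a replicate block and leaving out each library.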

Additional observations from a re-analysis of the deposited data

How the results depend on the processing

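No TGF-beta core gene was called by limma under any of the 12 alternatives (lowest adjusted p = 0.17, for Tgfbr2 without PRL-3 replicate 2). Of 82 alternative values of the 7 tested genes, 75 kept their direction. Tgfbr2 kept a negative difference in all 12, from -0.36 to -0.26. The 7 that changed sign were close to 0 and came from leaving out 1 library. Over the fits that left out 1 library, the difference ranged from -0.31 to 0.018 for Tgfb1, from -0.032 to 0.25 for Tgfbr1, from -0.14 to 0.068 for Eng, from -0.030 to 0.089 for Smad2, and from -0.024 to 0.50 for Smad7. Such fits leave 1 library in a group, which is assumed to vary like the other group.

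The number of genes called over all genes was 6 and depended on the setting. It was 1 with a pseudocount of 0.1, 0 with no filter, 1 with a mean of 5 or more, 10 without the trend and 0 without robust moderation. Over the fits that left out 1 library it ranged from 0 (without either VT replicate) and 2 (without PRL-3 replicate 1) to 100 (without PRL-3 replicate 2). Of the pathway list genes, 0 to 1 were then called. With the replicate block, 15 genes were called. The replicate numbers are not stated to mark a shared batch, and the deviations of the same-numbered libraries from their group means had a correlation of -0.06 across 12193 genes, which are not independent replicates, so the numbers were not taken as pairs.

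The differences of Tgfb2, Tgfb3 and Smad3, which were not tested, were 0.07, 0.14 and 0.40 with a pseudocount of 1, and 0.49, 0.97 and 0.91 with 0.1. Added after seeing the data, the median difference of the reported target genes, 0.36, ranged from 0.22 (without PRL-3 replicate 2) to 0.45 when 1 library was left out, and that of the 56 pathway genes from 0.16 to 0.23. Without the 5 pathway genes that reached an FPKM of 1 in PRL-3 samples only, the medians were 0.27 and 0.16. With 2 libraries a group, the width of the intervals limits the precision.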
